A study of Homo sapiens with 27 samples.

Results

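The data described here compare 501mel melanoma cells that lack TFEB with their unedited parent (WT), both kept in Torin. The members are 5 of the 27 libraries of the series, chosen by their labels: 3 of TFEB KO Torin and 2 of WT Torin. Both groups received Torin1, an inhibitor of the kinase mTOR, at 250 nM for 12 h. A further library carries the label WT Torin replicate 1, but its values equal those of the library labelled WT HBSS replicate 3 in all 13523 genes, so it was put in neither group. Other groups that share the design were used for reference: TFEB KO CTRL (12 h, n = 3), untreated WT CTRL (n = 3), TFE3 KO Torin (n = 3) and DKO Torin (TFE3 and TFEB both targeted, n = 3). Each knockout was made with Cas9 and is 1 clone, so all its libraries come from that clone, and clone and genotype cannot be told apart. 501mel is an established human melanoma line with high MITF. Libraries were made from the 3′ ends of polyadenylated RNA.

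TFEB is a basic helix-loop-helix leucine zipper transcription factor of the MiT/TFE family, together with TFE3, MITF and TFEC. When amino acids are plentiful, mTORC1 at the lysosome surface phosphorylates TFEB and TFE3, which are then held in the cytoplasm. When mTOR is inhibited, they enter the nucleus and bind E-box and CLEAR motifs in promoters of lysosomal and autophagy genes. MITF is the family member that directs pigment cell identity. The comparison asks which transcripts depend on TFEB when mTOR is inhibited.

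The edit is shown by its target because the libraries read only transcript ends. The TFEB guide had 1 perfect match next to an NGG PAM in hg38 and no further such site with up to 3 mismatches. Without the PAM it lies at chr6:41690831-41690850 on the - strand, inside the TFEB gene (chromosome 6, 41683978 to 41736259, - strand), in exon 3 of the canonical transcript and in coding sequence of 15 annotated transcripts. The site reads as follows, with the PAM in capitals.
TFEB guide site: agtacctgtccgagacctatGGG

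TFEB transcript itself was scarce in every library. Its normalised read count, that is reads scaled to the library's size, was 3.45, 0.628 and 0.611 in TFEB KO Torin and 5.63 and 4.27 in WT Torin, so the groups did not overlap although the first TFEB KO library came near the WT range. TFEB was lower in TFEB KO Torin by a log2 fold change of -1.38 (SE 0.36, adjusted p = 0.00494, limma). A 3′ end count says how much transcript was left and nothing of whether its reading frame was intact. TFEB was no longer called with DESeq2 (adjusted p = 0.0948) or without WT Torin replicate 2 (log2 fold change -1.22, adjusted p = 0.0807). TFE3 was 18.3, 19.00 and 16.5 in TFEB KO Torin and 20.4 and 17.5 in WT Torin, and MITF was 748.1, 705.2 and 753.0 against 734.6 and 732.4. In both genes the libraries overlapped, and the log2 fold changes were -0.076 for TFE3 (adjusted p = 0.836) and 0.0032 for MITF (adjusted p = 0.982). The sign of each turned under 1 setting for TFE3 and 4 for MITF.

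Depth was 4147050 and 4204431 reads in WT Torin and 4468579 to 5835942 in TFEB KO Torin, and a count of 0 allows up to 3 reads, or a value of 0.471 to 0.711, in counting error alone. The melanocyte markers PMEL, MLANA, TYR, TYRP1, DCT, SOX10, MITF and S100B were all measured and summed to 7296 to 7395 in TFEB KO Torin and 8076 to 8312 in WT Torin. In bulk RNA, fewer cells of a type and less RNA per cell cannot be told apart. Of the 6 fibroblast markers 3 were listed and summed to 3.62 to 7.22 against 1.66 to 2.81, and the 1 listed keratinocyte marker was at 60.9 to 67.9 against 62.8 to 64.9. None of the 6 leukocyte and 5 endothelial markers was listed. GC content of the transcript end moved with the comparison. Among genes with a mean value of at least 5, the 2487 with the lowest GC in the last 500 bases (22.4% to 34.2%) had a median log2 fold change of 0.13, and the 2420 with the highest (50.8% to 75.2%) one of -0.16. In cells without drug the same sets had 0.023 and -0.049. The part of GC in the differences below was tested only by removing its trend.

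Loss of TFEB under Torin went with more genes higher than lower. Genes are named as called where the adjusted p was under 0.05 and the log2 fold change reached 1 in either direction. This held for 318 of 13052 genes tested (2.44%). In TFEB KO Torin 267 of these were higher (2.05%) and 51 lower (0.391%). At the adjusted p alone 2343 genes passed (18.0%) and the sides were near equal, with 1226 genes higher (9.39%) and 1117 lower (8.56%). In the gene lists below, higher and lower refer to this adjusted p. The called genes were mostly scarce: 150 of the 267 higher genes and 35 of the 51 lower ones had a mean value under 5 over the 5 libraries, against 3083 of all 13052. In 63 of the higher genes both WT Torin libraries held 3 reads or fewer, and in 6 of the lower genes all 3 TFEB KO Torin libraries did. Libraries from TFEB KO and WT stood fully apart in 263 of the 267 and in 51 of the 51, as they did in 45.8% of all genes tested.

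The 12 called genes with the highest log2 fold change held no member of the lysosomal list. They include a hair keratin (KRT81), a cancer-testis antigen (SSX1), an axon guidance ligand (SLIT1) and a pump subunit (ATP1B1). KRT81 (chromosome 12, 52285913 to 52291534, - strand) was 25.5, 45.1 and 30.9 in TFEB KO Torin and 2.58 and 0.474 in WT Torin, a log2 fold change of 3.88 (SE 0.31, adjusted p = 3.68e-13). SSX1 (chromosome X, 48255392 to 48267444, + strand), silent in most adult tissues outside the testis, was 42.2, 57.6 and 43.4 against 3.05 and 2.13 (3.76, adjusted p = 1.62e-16). Every TFEB KO library was far above both WT libraries in these genes. Both belong to families of near-identical copies, among which the authors' counting could have split reads. The long noncoding RNA OVAAL (chromosome 1, 180509380 to 180566523, + strand) was 43.8, 40.05 and 48.5 against 5.16 and 2.37 (3.30, adjusted p = 4.55e-13). SLIT1 (chromosome 10, 96998038 to 97185959, - strand), a secreted ligand of ROBO receptors, was 16.6, 15.1 and 16.9 against 2.11 and 1.19 (2.72, adjusted p = 4.79e-08). Its 3 TFEB KO libraries lay close together. DHRS2 (chromosome 14, 23630115 to 23645639, + strand), a short-chain dehydrogenase, was 81.05, 64.2 and 74.3 against 11.02 and 13.7 (2.47, adjusted p = 1.2e-11). ATP1B1 (chromosome 1, 169105697 to 169310992, + strand), the beta subunit of the sodium and potassium pump, was 28.8, 32.98 and 25.04 against 5.16 and 4.27 (2.39, adjusted p = 1.31e-11). RNASE1, a secreted ribonuclease, was 68.6, 85.1 and 59.3 against 13.6 and 17.1 (2.13, adjusted p = 1.84e-14). These 3 genes were well above the floor in every library. The remaining 5 of the 12 highest were FAM133A (2.59), the salivary peptide gene HTN3 (2.37), TMEM158 (2.25), the noncoding LINC00504 (2.12) and the adaptor gene FYB (2.11). All 12 stayed called under every alternative tried.

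**Figure D1:**
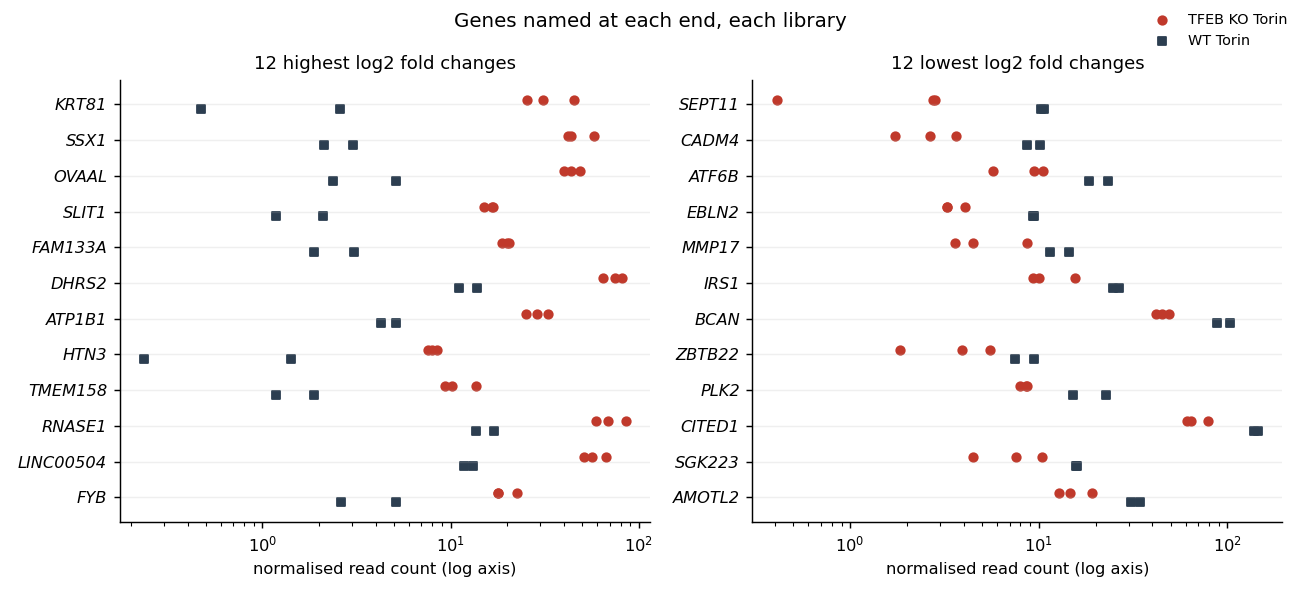
Normalised read count (log axis) of the 12 called genes with the highest and the 12 with the lowest log2 fold change, each point 1 library (circles, TFEB KO Torin, n = 3; squares, WT Torin, n = 2). The groups are separate in each gene because the choice required it, with the highest log2 fold changes in KRT81 (3.88), SSX1 (3.76) and OVAAL (3.30).

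Fewer genes were lower, and their log2 fold changes lay closer to the threshold. The 12 lowest include 2 adhesion or matrix genes (CADM4, BCAN), an insulin receptor adaptor (IRS1) and a pigment cell coregulator (CITED1). SEPT11 (chromosome 4, 76949752 to 77040154), a septin of the cytoskeleton, was 2.76, 2.83 and 0.407 in TFEB KO Torin and 10.3 and 10.7 in WT Torin (-2.08, SE 0.32, adjusted p = 4.34e-06). It was at 0 in all 3 libraries of TFE3 KO Torin, and in DKO Torin it was 0.154, 0 and 0, values near 0 in both. CADM4 (chromosome 19, 43622368 to 43639850, - strand), a cell adhesion molecule, was 3.62, 1.73 and 2.65 against 8.67 and 10.2 (-1.54, adjusted p = 0.000402). IRS1 (chromosome 2, 226731312 to 226799820, - strand), which links insulin and IGF1 receptors to PI3K and mTOR, was 10.00, 9.27 and 15.5 against 26.5 and 24.9 (-1.12, adjusted p = 1.38e-05). The third TFEB KO library was the nearest to WT, and without TFEB KO Torin replicate 2 IRS1 was no longer called (log2 fold change -0.99). BCAN (chromosome 1, 156641390 to 156659532, + strand), the proteoglycan brevican, was 48.8, 45.1 and 41.7 against 88.6 and 103.8 (-1.07, adjusted p = 2.98e-09). CITED1 (chromosome X, 72301638 to 72307187, - strand), a transcriptional coregulator studied in pigment cells, was 64.1, 78.7 and 61.3 against 137.8 and 146.0 (-1.06, adjusted p = 7.8e-11). These 2 genes were the most abundant of the 12 lowest, and each lost its call with the GC trend removed (-0.94 and -0.96). ATF6B, a sensor of endoplasmic reticulum stress, was 10.5, 9.42 and 5.7 against 18.5 and 23.2 (-1.23, adjusted p = 0.000102). The others were EBLN2 (-1.20), the membrane metalloproteinase gene MMP17 (-1.15), ZBTB22 (-1.07), the polo-like kinase gene PLK2 (-1.07), SGK223 (-1.05) and the angiomotin relative AMOTL2 (-1.04). Only SEPT11 and CADM4 among the 12 lowest stayed called under every alternative, and each of the other 10 lost its call when 1 of the 5 libraries was left out. Besides IRS1, this was so without WT Torin replicate 3 for BCAN (-0.96), EBLN2 (-1.20, adjusted p = 0.0515) and PLK2 (-0.79), and without TFEB KO Torin replicate 3 for ATF6B (-0.99), CITED1 (-0.99) and SGK223 (-0.77). It was so without TFEB KO Torin replicate 2 for MMP17 (-0.94), and without WT Torin replicate 3 (-0.96) or TFEB KO Torin replicate 3 (-0.92) for AMOTL2. ZBTB22 lost its call without WT Torin replicate 2 (-1.22, adjusted p = 0.07), WT Torin replicate 3 (-0.92) or TFEB KO Torin replicate 3 (-0.74).

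Most lysosome and autophagy genes, which TFEB is known to activate, did not pass, and those that did lay on both sides. The numbers not passing were 43 of 54, 17 of 20 and 31 of 43 in the lists of lysosomal, vacuolar ATPase and autophagy genes. The shares that passed were 12.96%, 10% and 16.3% on the higher side, beside 9.39% of all genes, and 7.41%, 5% and 11.6% on the lower, beside 8.56%. Of the 54 lysosomal hydrolase and membrane protein genes, 7 were higher (CTSS, GLA, SLC17A5, LAMP2, TMEM192, SCARB2 and CTSB) and 4 lower (GPNMB, LAMP1 and NEU1 among them) at an adjusted p under 0.05, with a median log2 fold change of 0.055 beside -0.0034 over all genes. The protease gene CTSS was the one called, at 8.1, 8.95 and 10.6 in TFEB KO Torin and 1.88 and 2.13 in WT Torin (1.76, adjusted p = 6.03e-05). The 4 lower genes were 0 without WT Torin replicate 3 and 2 without WT Torin replicate 2 or TFEB KO Torin replicate 1 or 3. Of 20 vacuolar ATPase subunits, 2 were higher, ATP6V1C1 (57.8, 57.3 and 59.7 against 42.2 and 42.2, 0.46, adjusted p = 0.00434) and ATP6V0E1 (0.44, adjusted p = 0.00447), and 1 was lower, which became 0 without any 1 of the 5 libraries. The adjusted p of ATP6V0E1 was 0.0606 without WT Torin replicate 3. In the autophagy list of 43 genes, 7 were higher and 5 lower, with a median of 0.027. ATG4A, a protease that processes ATG8 proteins, was called at 7.24, 5.65 and 7.53 against 3.05 and 2.61 (1.02, adjusted p = 0.00447), at the edge of the fold threshold, and lost the call under 5 of 16 alternatives, among them without WT Torin replicate 3 (0.94) and without TFEB KO Torin replicate 1 (0.98) or 3 (0.95). The other higher ones were the ATG8 family members MAP1LC3B and GABARAPL1, the cargo receptors SQSTM1 and OPTN, EPG5 and RB1CC1, and the lower ones were WIPI1, WIPI2, ATG2A, ATG9A and ATG4B. The 7 higher autophagy genes were 3 without WT Torin replicate 3 and 4 with the GC trend removed, and the 5 lower were 3 without TFEB KO Torin replicate 1 or 3 or with the GC trend removed.

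Of 29 genes that set or sense mTORC1 activity, 19 did not pass, 6 were higher (20.7%, beside 9.39% of all genes) and 4 lower (13.8%, beside 8.56%), with a median of -0.053. The 3 sestrins, which restrain mTORC1, were all higher. SESN3 was 43.1, 36.1 and 40.1 in TFEB KO Torin and 16.9 and 14.5 in WT Torin (1.29, adjusted p = 6.96e-08), and SESN1 was 12.8, 9.89 and 11.8 against 5.16 and 3.56 (1.23, adjusted p = 9.14e-05). SESN2 had 0.95. Both insulin receptor substrates were lower, IRS1 as given above and IRS2 at -0.65. The 4 lower genes were 2 without WT Torin replicate 3 or TFEB KO Torin replicate 3. Among 21 MiT/TFE family members and their regulators, TFEB was the one called. RRAGD, a Rag GTPase of the same pathway, was higher at 0.38 and LAMTOR1, a subunit of its lysosomal scaffold, was lower at -0.26. In that list 2 genes were higher and 2 lower (9.52% each, beside 9.39% and 8.56% of all genes). The 2 higher were 0 without WT Torin replicate 3 and 1 without WT Torin replicate 2 or TFEB KO Torin replicate 2 or 3, and the 2 lower were 0 without WT Torin replicate 2.

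Among the 24 lists, ribosomal proteins had the highest share of lower genes. Of 78 cytosolic ribosomal protein genes, 59 were lower, where 8.56% of all genes were, and 77 had a negative log2 fold change, as 50.5% of all genes had. Their median was -0.29, with a range from -0.73 to 0.14. The 2 with the lowest adjusted p were RPS18, at 2452, 2423 and 2725 against 3824 and 4080 (-0.64, adjusted p = 3.35e-09), and RPS10, at 255.7, 279.4 and 250.9 against 421.7 and 449.4 (-0.73, adjusted p = 2.18e-08). Both lie on the short arm of chromosome 6, described below, but 56 of the 75 members elsewhere were also lower, with a median of -0.29. Without WT Torin replicate 3 the 59 became 31, and with the GC trend removed 45, while the median stayed between -0.31 and -0.25 over all alternatives. Ribosomal protein genes have many processed pseudogenes with which reads could be shared. In cells without drug the list's median was -0.23, with 54 lower, where 7.18% of all genes were. Of 73 respiratory chain genes, 15 were lower (20.5%, beside 8.56% of all genes), with a median of -0.15. These were 12 subunits of complex I, 2 of ATP synthase and SDHC of complex II, among them NDUFA10 (67.1, 70.99 and 59.9 against 96.3 and 89.4, -0.49, adjusted p = 0.000255). Without drug more of this list were lower, 26 with a median of -0.21, where 7.18% of all genes were. Its median in the interaction, described below, was 0.096. The 15 became 8 without WT Torin replicate 3.

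Part of the interferon response list was higher. Of 48 tested, 16 were higher and 1 lower (STAT2), where 9.39% of all genes were higher, and the median was 0.34. IFIH1, the cytoplasmic RNA sensor MDA5, was 5.69, 7.54 and 9.98 in TFEB KO Torin and 1.64 and 1.9 in WT Torin (1.63, adjusted p = 0.000301). The immunoproteasome subunits PSMB8 and PSMB9, which are neighbours, were 12.2, 12.3 and 11.6 against 5.16 and 4.03 (1.23, adjusted p = 0.00055) and 10.7, 10.1 and 8.76 against 3.98 and 3.56 (1.18, adjusted p = 0.00215). In all 3 genes the groups were apart. IFI27 had 26 reads over the TFEB KO Torin libraries and 2 over those of WT Torin, a ratio of 6.46 with a 95% counting interval from 1.62 to 56.2. Its call was lost under 9 of 15 alternatives, among them edgeR, DESeq2 and leaving out any library but TFEB KO Torin replicate 1 (adjusted p from 0.0639 to 0.162). The others that passed were UBE2L6, IFI44, OAS3, IRF1, HLA-B, PARP9, IRF2, ISG20, IFITM2, IFITM3, IFI6 and TRIM25, from 0.99 down to 0.27. The 16 became 8 without WT Torin replicate 2, 9 without WT Torin replicate 3 and 10 without TFEB KO Torin replicate 2. In cells without drug 20 were higher, with a median of 0.39, where 7.46% of all genes were, and in DKO Torin against TFE3 KO Torin 11 were, with a median of 0.32, where 5.17% were. Of 38 NF-kB and inflammatory genes, 10 were higher (26.3%, beside 9.39% of all genes) and 1 lower (2.63%, beside 8.56%). IL11 had 47 reads over the TFEB KO Torin libraries and 5 over those of WT Torin, a ratio of 4.67 (95% counting interval 1.87 to 15.0). PTGS2, which encodes cyclooxygenase 2, was 4.83, 9.58 and 6.72 against 1.88 and 3.56 (1.11, adjusted p = 0.0204), and the adaptor gene TRAF1 was 2.07, 3.3 and 3.46 against 0.938 and 0.711 (1.10, adjusted p = 0.0119). Calls were lost without WT Torin replicate 3 for IL11 (adjusted p = 0.0698) and TRAF1 (0.11), without TFEB KO Torin replicate 3 for TRAF1 (log2 fold change just under 1), and without WT Torin replicate 2 (0.266) or TFEB KO Torin replicate 2 (0.106) for PTGS2. TRAF1 was also not called by edgeR or DESeq2. The list as a whole rested on few libraries: the 10 became 1 without WT Torin replicate 3, 6 without WT Torin replicate 2, 4 without TFEB KO Torin replicate 1 and 5 without TFEB KO Torin replicate 2.

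Part of the cell cycle lists was also higher in TFEB KO Torin. Of 61 E2F and DNA replication genes 13 were higher (21.3%) and 3 lower (4.92%), and of 54 G2/M genes 14 were higher (25.9%). Of all genes 9.39% were higher and 8.56% lower. The repressor E2F8 was 1.21, 2.98 and 4.48 in TFEB KO Torin and 1.17 and 0 in WT Torin (1.30, adjusted p = 0.00471), and FAM111B was 8.1, 12.3 and 12.6 against 6.09 and 2.61 (1.22, adjusted p = 0.000579). E2F8 was scarce, and its lowest TFEB KO library was level with its higher WT library. Without WT Torin replicate 3 neither gene was called (0.74 and 0.73), and without TFEB KO Torin replicate 3 E2F8 was not (adjusted p = 0.0534). The mitotic genes BIRC5 and PBK were abundant, at 227.1, 257.3 and 246.6 against 166.2 and 144.1 (0.65, adjusted p = 2.8e-07) and 76.7, 83.2 and 87.96 against 57.7 and 40.5 (0.76, adjusted p = 1.22e-06). Without drug the E2F list leaned the other way, with 1 higher and 13 lower, where 7.46% and 7.18% of all genes were. Its medians were 0.11 under Torin and -0.18 without. In the interaction test, described below, 6 E2F genes passed on the higher side, where 0.812% of all genes did. Without WT Torin replicate 3 the 13 higher E2F genes became 6 and the 3 lower 0. The 14 G2/M genes became 6 without WT Torin replicate 2 or TFEB KO Torin replicate 3, 7 without WT Torin replicate 3 and 7 with the GC trend removed. Counting the duplicated column as WT Torin left 3 E2F and 1 G2/M genes on the higher side, and turned the G2/M median from 0.14 to -0.064. Among 30 p53 targets and cell cycle inhibitors, 9 were higher (30%) and 4 lower (13.3%). BTG2, an antiproliferative gene, had 70 reads over TFEB KO Torin and 5 over WT Torin, a ratio of 6.96 (95% counting interval 2.84 to 22.1). TIGAR, a fructose bisphosphatase, was 19.8, 16.5 and 16.7 against 7.5 and 7.58 (1.12, adjusted p = 1.24e-06), and PMAIP1, which encodes the BH3 protein NOXA, was 3.97, 5.81 and 6.31 against 0.938 and 3.56 (1.08, adjusted p = 0.00251). The PMAIP1 call was lost without WT Torin replicate 2 (0.46) or TFEB KO Torin replicate 3 (0.97), with the GC trend removed and with the duplicated column (0.029). PLK2, another p53 target, went the other way at 7.93, 8.64 and 8.55 against 15.2 and 22.8 (-1.07, adjusted p = 0.000453). The 4 lower genes were 0 without WT Torin replicate 3 and 1 without WT Torin replicate 2 or TFEB KO Torin replicate 3.

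Some lipid synthesis and secretory pathway genes were higher by small amounts. Of 38 sterol and fatty acid genes 12 were higher (31.6%, beside 9.39% of all genes) and 3 lower (7.89%, beside 8.56%), with a median of 0.22. Among the 12 were STARD4, MSMO1, ELOVL6, DHCR7, SCD, SREBF1, INSIG1, HMGCS1, SC5D and CYP51A1, which include SREBP targets for making cholesterol. STARD4, a sterol carrier, was 7.93, 4.08 and 4.68 against 1.88 and 1.42 (1.27, adjusted p = 0.00139). The 3 lower were FDPS, FDFT1 and ELOVL5. Of 48 unfolded protein response genes, 9 were higher (18.8%) and 1 lower (2.08%), with a median of 0.19. In that list 42 had a positive log2 fold change, where 49.5% of all genes had. SPCS3, a signal peptidase subunit, was 146.6, 141.2 and 137.0 against 95.4 and 92.2 (0.59, adjusted p = 5.43e-06), and the oxidase gene ERO1A was 55.4, 52.9 and 62.1 against 38.9 and 37.7 (0.55, adjusted p = 0.000468). Without drug both lists were nearer 0, with medians of 0.099 and 0.0015. When the duplicated column was counted as WT Torin, 1 sterol gene and 0 unfolded protein response genes were higher. Integrated stress response genes split evenly among 45, with 6 higher and 6 lower, and the 6 lower were 3 without WT Torin replicate 2 or 3. Either side was 13.3% of that list in the main test. PSAT1, an enzyme of serine synthesis, was the one called, at 1.9, 1.88 and 2.04 against 5.39 and 5.21 (-1.10, adjusted p = 0.0084). The call was lost without WT Torin replicate 2 (adjusted p = 0.0638) or 3 (0.0589) and with a pseudocount of 0.1 (0.228). It was 0, 0 and 0.624 in TFE3 KO Torin and 0, 0.19 and 0.197 in DKO Torin. Of 31 cytosolic heat shock genes 2 were higher (6.45%) and 5 lower (16.1%). The lower ones were led by HSP90AB1 (4774, 4823 and 4973 against 7279 and 7267, -0.58, adjusted p = 3.94e-10), which lies on the short arm of chromosome 6, and DNAJB6 (-0.37, adjusted p = 0.00479). The 5 lower became 1 without WT Torin replicate 2 and 3 without WT Torin replicate 3 or TFEB KO Torin replicate 3, and the 2 higher became 0 without WT Torin replicate 3 and 1 without WT Torin replicate 2 or TFEB KO Torin replicate 3. The adjusted p of DNAJB6 was 0.072 without WT Torin replicate 2. Of 43 hypoxia and glycolysis genes 7 were higher (16.3%) and 4 lower (9.30%), with the oxygen sensor gene EGLN1 (0.74, adjusted p = 0.00047) and ERO1A at the lowest adjusted p. The 7 higher became 2 without WT Torin replicate 3 and 4 without WT Torin replicate 2.

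Some pigment cell genes were slightly lower. Of 36 tested, 9 were lower (SOX10, SLC45A2, PMEL, OCA2, TRPM1, APOE, RAB32, GPR143 and EDNRB) and 1 higher (RAB27A), none past the fold threshold, with a median of -0.11. These were 25% and 2.78%, where 8.56% of all genes were lower and 9.39% higher. The endothelin receptor gene EDNRB was 151.1, 139.9 and 156.2 in TFEB KO Torin and 243.3 and 242.9 in WT Torin (-0.70, adjusted p = 8.62e-08), and the melanosome receptor gene GPR143 was 209.0, 222.5 and 209.3 against 298.1 and 317.8 (-0.53, adjusted p = 9.95e-06). Of 24 receptor tyrosine kinases, 3 were higher and 3 lower (12.5% each). AXL, a marker of dedifferentiated melanoma, was 5.69, 9.27 and 4.68 against 1.88 and 1.42 (1.47, adjusted p = 0.00101), and the ephrin receptor gene EPHA4 was 53.1, 55.9 and 56.2 against 26.95 and 20.1 (1.21, adjusted p = 1.48e-07). The collagen receptor gene DDR2 had 40 reads over TFEB KO Torin and 2 over WT Torin, a ratio of 9.94 (95% counting interval 2.58 to 84.9). The 3 lower were TYRO3, EPHB4 and ERBB3, and without WT Torin replicate 3 the number was 1. The matrix and mesenchymal list of 45 split with 7 higher (15.6%) and 6 lower (13.3%). SPP1, which encodes osteopontin, was 57.8, 49.9 and 58.6 against 27.7 and 20.1 (1.19, adjusted p = 4.45e-06), and TGFBI had 33 reads over TFEB KO Torin and 3 over WT Torin (ratio 5.47, 95% counting interval 1.71 to 27.9). SPP1 was not called without WT Torin replicate 3 (0.97). TGFBI was not called under 10 of 15 alternatives, among them edgeR, DESeq2 and leaving out WT Torin replicate 2, WT Torin replicate 3 or TFEB KO Torin replicate 2 (adjusted p = 0.198, 0.0962 and 0.2). In that list the 7 higher became 2 without WT Torin replicate 2, 3 without TFEB KO Torin replicate 2 or 3, and 4 without WT Torin replicate 3 or TFEB KO Torin replicate 1. Its 6 lower became 0 without WT Torin replicate 2, 2 without WT Torin replicate 3 and 3 without TFEB KO Torin replicate 1 or 3.

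Keratin and epithelial genes were a small list with wide shifts. Of 36 listed, 11 were tested and 5 were higher (45.5%, where 9.39% of all genes were): KRT81, KRT17, KRT86, KRT80 and PERP. A scarce member could enter the test by being high in TFEB KO, which raises this share. KRT17, for example, was under 1 in every WT Torin, WT CTRL and TFE3 KO Torin library. At a minimum value of 5, or with only the libraries compared, 3 of 8 were higher. KRT17 had 110 reads over TFEB KO Torin and 5 over WT Torin, a ratio of 10.9 (95% counting interval 4.55 to 34.3). KRT86 was 3.28, 5.18 and 0.611 against 0 and 0.948 (1.32, adjusted p = 0.0165), its lowest TFEB KO library under its higher WT library. KRT86 is a near neighbour and close relative of KRT81, and reads could be shared between them. The KRT86 call was lost without WT Torin replicate 2 (0.84) or TFEB KO Torin replicate 1 (1.18, adjusted p = 0.0695) or 2 (0.91), and with DESeq2. The 5 became 3 without WT Torin replicate 2 or TFEB KO Torin replicate 2. Among 16 cancer-testis antigens, MAGEA10 joined SSX1 on the higher side, at 66.9, 58.6 and 72.1 against 19.7 and 26.3 (1.49, adjusted p = 5.82e-10), and PRAME and CTAG2 were lower. Each side held 12.5% of that list, where 9.39% of all genes were higher and 8.56% lower. The 2 lower became 1 without WT Torin replicate 2 or 3. Of 50 axon guidance and neural crest genes, 4 were higher (8%) and 6 lower (12%). SLIT1 is given above, and the adhesion gene NRCAM was 0, 0.471 and 1.02 against 2.81 and 1.9 (-1.21, adjusted p = 0.00828), a call lost without WT Torin replicate 2 (adjusted p = 0.116) or TFEB KO Torin replicate 1 (0.0688). The 4 higher became 2 without WT Torin replicate 2, and the 6 lower became 2 without WT Torin replicate 2 and 3 without WT Torin replicate 3. Of 27 MAPK output genes 2 were higher (EPHA4 and DUSP1) and 2 lower (DUSP6 and SPRY2), 7.41% each, beside 9.39% and 8.56% of all genes. The 2 higher became 1 without WT Torin replicate 2 or 3 or TFEB KO Torin replicate 1 or 2, and the 2 lower 0 without WT Torin replicate 2 and 1 without WT Torin replicate 3.

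**Figure D2:**
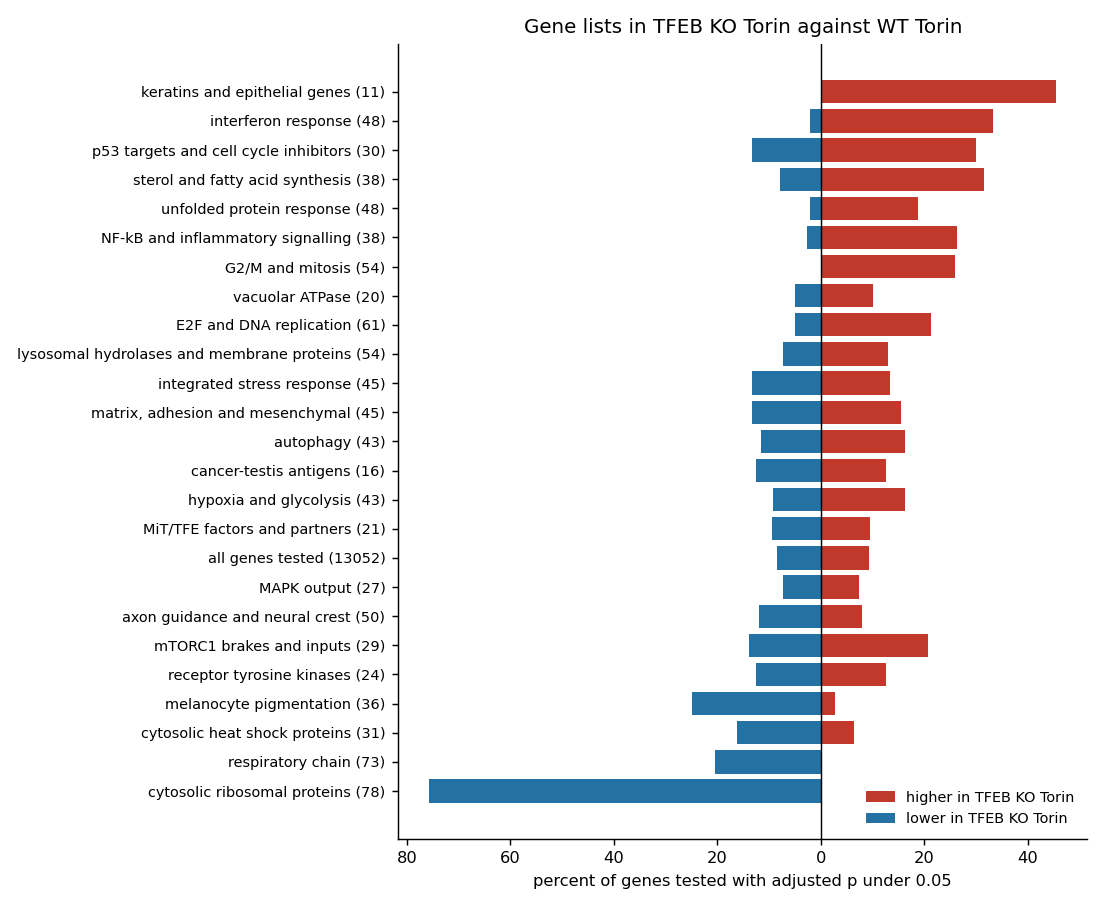
Percent of the genes tested in each list (number in brackets) that were higher (right, red) or lower (left, blue) in TFEB KO Torin at an adjusted p under 0.05, with lists ordered by median log2 fold change. Ribosomal proteins stand out on the lower side (59 of 78), and keratins, interferon, sterol and p53 lists on the higher side, where 9.39% of all genes tested were higher and 8.56% lower. In the keratin list 3 of 8 were higher at a minimum value of 5.

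The next question was how many of these differences were present without Torin and in a further clone with TFEB targeted. TFEB KO CTRL against WT CTRL, which shares no library with the comparison under Torin, had 218 called genes (1.67%), 185 higher (1.42%) and 33 lower (0.253%). Of the 267 genes higher under Torin, 252 (94.4%) were also above WT without drug, where 49.7% of all genes were. The median log2 fold change of the 267 was 0.77 without drug and 1.22 under Torin. They were chosen for high values under Torin, which raises the 1.22, so the 2 medians do not compare the sizes of the differences. In 102 of the 267 the gene was called without drug too, which is 38.2% of them and 55.1% of the 185 genes called higher there. Of the 51 lower genes, 43 (84.3%) were below WT without drug against 50.3% of all genes, and 13 were called. All 12 of the highest genes were higher at an adjusted p under 0.05 without drug, where 7.46% of all genes were. For example, KRT81 had 60.8, 56.6 and 40.4 against 2.96, 4.55 and 3.12, and DHRS2 had 67.6, 60.5 and 60.7 against 10.4, 7.52 and 9.37. In both of these genes the knockout without drug was far above WT without drug. The labels give 12 h for TFEB KO CTRL and no time for WT CTRL, and whether this bears on the differences was not tested. The interaction below uses the same groups. Of the 12 lowest, 6 were lower at that adjusted p without drug, where 7.18% of all genes were.

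DKO Torin against TFE3 KO Torin sets a further clone with TFEB targeted against one in which only TFE3 was. TFEB transcript was already low in the reference clone, at 1.91, 1.34 and 2.29 in TFE3 KO Torin and 0.769, 0.19 and 0.984 in DKO Torin, a difference that did not pass (-0.81, adjusted p = 0.11). Its mean in TFE3 KO Torin was 1.84 ± 0.479 (SD, n = 3), beside 1.56 ± 1.63 (SD, n = 3) in TFEB KO Torin and 4.95 ± 0.961 (SD, n = 2) in WT Torin. The comparison shares no library with that of TFEB KO and WT, and 185 genes (1.42%) were called, 153 higher (1.17%) and 32 lower (0.245%). Of the 267 higher genes, 211 (79.03%) were also higher there, where 48.5% of all genes were, with a median log2 fold change of 0.36, and 45 were called. Of the 51 lower genes, 29 (56.9%) were lower there, close to the 51.4% of all genes, and 1 was called. In the 12 highest, 9 passed in the same direction, where 5.17% of all genes were higher. Among them DHRS2 had 3.09 (adjusted p = 2.36e-16), SSX1 1.62 (adjusted p = 3.48e-07) and SLIT1 1.62 (adjusted p = 0.00014). DHRS2 was 37.5, 37.4 and 39.4 in DKO Torin against 3.6, 5.79 and 2.08 in TFE3 KO Torin. Some of the 9 were near their WT Torin level in DKO Torin and lower still in TFE3 KO Torin. Group means in DKO, WT and TFE3 KO Torin were 4.36, 3.76 and 1.84 for OVAAL and 5.59, 4.71 and 3.04 for ATP1B1. FYB had 3.57, 3.88 and 1.43, and KRT81 had 1.08, 1.53 and 0.148. In DKO Torin the means of DHRS2, SSX1, SLIT1, RNASE1 and TMEM158 were above those of WT Torin. The levels differed between the clones. KRT81 was 33.8 ± 10.1 (SD, n = 3) in TFEB KO Torin but 1.08 ± 0.531 (SD, n = 3) in DKO Torin, and FAM133A, HTN3 and LINC00504 did not pass there (-0.36, -0.0089 and -0.031). Of the 12 lowest only AMOTL2 passed in the same direction (-0.53, adjusted p = 0.0431), where 4.21% of all genes were lower. MITF, which did not pass in TFEB KO Torin, was lower in DKO Torin than in TFE3 KO Torin (-0.56, adjusted p = 2.59e-09).

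**Figure D3:**
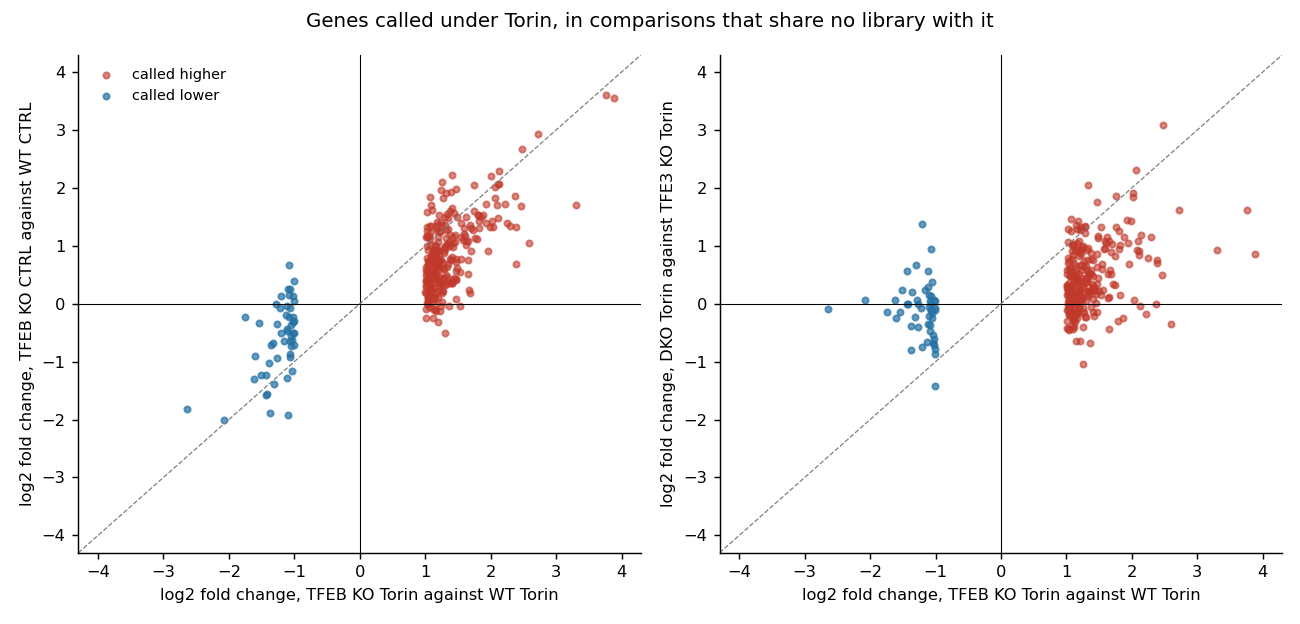
Log2 fold change of the 318 genes called under Torin (horizontal axes) against that in TFEB KO CTRL against WT CTRL (left) and in DKO Torin against TFE3 KO Torin (right), each point 1 gene, with equal values on the dashed line. Most higher genes lie above 0 in both panels (252 and 211 of 267), and of the 51 lower genes 43 lie below 0 on the left and 29 on the right.

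Set directly against the other single knockout under Torin, TFEB KO differed in 649 genes (4.97%), 567 higher (4.34%) and 82 lower (0.628%) than in TFE3 KO. ANKRD1, a stretch-responsive cofactor, was 111.1, 161.4 and 145.6 in TFEB KO Torin, 3.39, 4.23 and 4.16 in TFE3 KO Torin and 45.7 and 38.9 in WT Torin, so the 2 knockouts lay on opposite sides of WT. ATP6V1C1 followed the same order, with 57.8, 57.3 and 59.7, 22.9, 24.5 and 26.4 and 42.2 and 42.2 in those groups. SPP1 did as well, with 10.6, 9.35 and 7.7 in TFE3 KO Torin. BCAN went the other way, at 48.8, 45.1 and 41.7 in TFEB KO Torin and 117.2, 121.3 and 134.2 in TFE3 KO Torin (log2 fold change -1.44, adjusted p = 1.02e-15), with WT Torin between. FAM133A was 16.1, 14.2 and 18.1 in TFE3 KO Torin, also above WT Torin, and the difference between the knockouts of 0.27 did not pass (adjusted p = 0.373). Both comparisons use the same TFEB KO Torin libraries.

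A difference between clones that depends on the drug is given by the interaction, the Torin response of TFEB KO minus that of WT. It called 27 genes (0.207%), 15 higher (0.115%) and 12 lower (0.0919%). The number depended on single libraries. It was 13 without WT Torin replicate 3, 16 and 14 without TFEB KO Torin replicates 1 and 3, 14 and 41 without TFEB KO CTRL replicates 1 and 3, and 1 when the duplicated column was counted as WT Torin. With the GC trend removed the split was 17 higher and 3 lower. ATP1B1 was 30.2, 25.9 and 28.1 without drug and 5.16 and 4.27 under Torin in WT, and in TFEB KO it was 44.4, 50.4 and 42.8 without and 28.8, 32.98 and 25.04 with drug (interaction 1.70, SE 0.29, adjusted p = 0.000913). MTHFD2P1, a pseudogene of the mitochondrial folate enzyme MTHFD2 whose reads may come from that gene, was 12.7, 11.5 and 12.1 and then 4.92 and 3.79 in WT, and 11.8, 11.1 and 12.1 and then 11.6, 16.02 and 15.9 in TFEB KO (interaction 1.57, adjusted p = 0.00137). In both genes WT was the group that changed level most. ANKRD1 was at 19.4, 17.6 and 20.3 in WT and 23.2, 23.99 and 18.9 in TFEB KO without drug, libraries that overlapped, beside the levels under Torin given above (interaction 1.49, adjusted p = 0.00751). OVAAL (1.60) and FAM133A (1.55) complete the 5 highest. On the lower side the WT response was upward. PRICKLE1, a planar cell polarity gene, was 4.6, 3.96 and 5.85 without drug and 20.2 and 18.01 with it in WT, and 7.06, 8.06 and 4.97 and then 8.45, 10.8 and 7.94 in TFEB KO (interaction -1.40, adjusted p = 0.0199). ATF6B was 9.53, 6.53 and 7.22 and then 18.5 and 23.2 in WT, and 7.06, 8.25 and 6.63 and then 10.5, 9.42 and 5.7 in TFEB KO (interaction -1.16, adjusted p = 0.0408). SIDT2, a lysosomal membrane protein gene, had -1.16 (adjusted p = 0.0338), NLGN2, a neuroligin, -1.52 (adjusted p = 0.0132) and OLFML2A -1.57 (adjusted p = 0.0152). Only ATP1B1 and MTHFD2P1 among these 10 kept the call whichever of the 11 libraries was left out. In NLGN2 and OLFML2A every TFEB KO CTRL library was above every WT CTRL library.

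**Figure D4:**
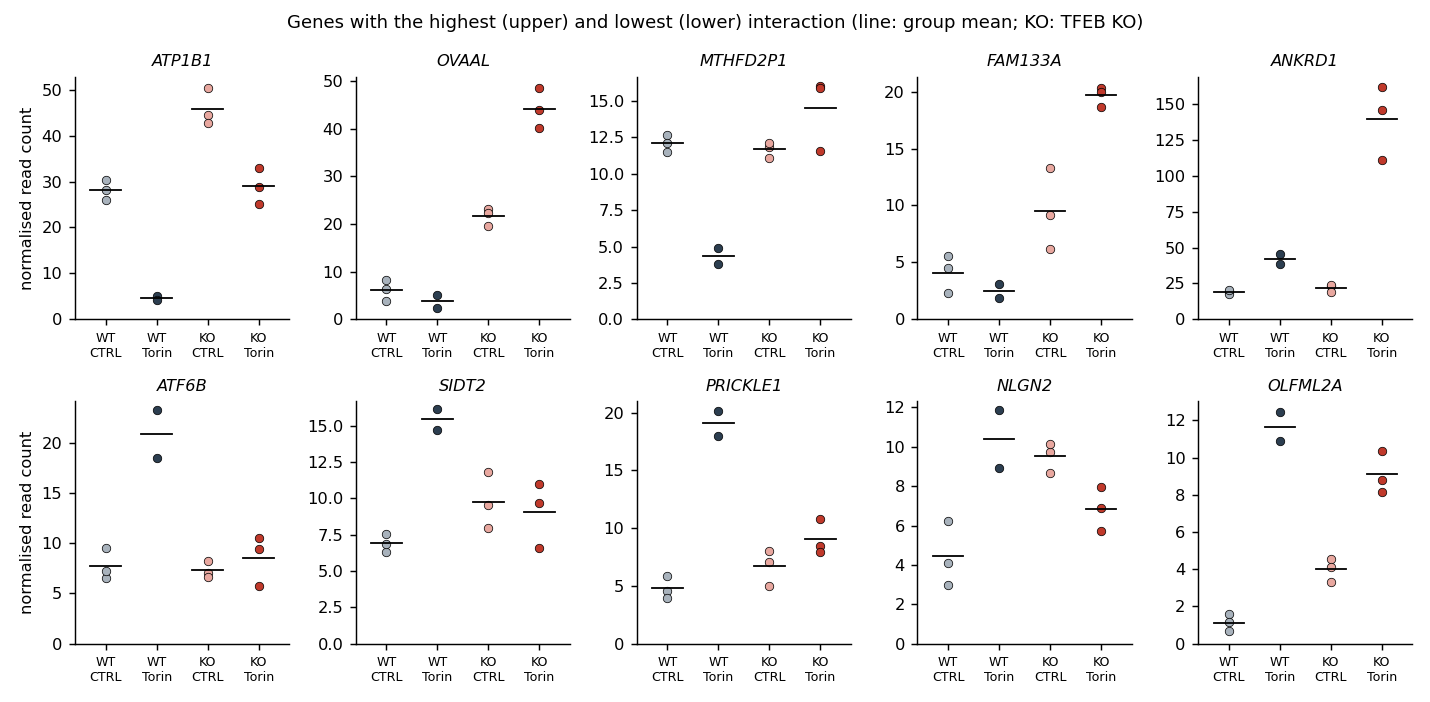
Normalised read count (linear axes from 0) of the 10 genes named in the interaction, by group, each point 1 library and each line a group mean (n = 3, except n = 2 for WT Torin). In the upper row TFEB KO keeps or gains expression under Torin, or loses less than WT (ATP1B1), and in the lower row WT gains more than TFEB KO.

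The position of genes on chromosome 6, the chromosome that carries TFEB, was examined after their values had been seen. Genes were taken at a mean value of at least 5 over the 25 libraries, and the arms were divided at 60 Mb, in a gap between PRIM2 and PTP4A1. On the short arm, 234 of 282 genes (83.0%) had a negative log2 fold change, with a median log2 fold change of -0.34, which is a change in level of -21.2%. The 3 TFEB KO Torin libraries had medians of -0.32, -0.32 and -0.34 against the WT mean, and 111 of the genes passed at an adjusted p under 0.05 on the lower side and 8 on the higher. The median was alike on both sides of the guide site, at -0.34 for 214 genes towards the telomere and -0.34 for 68 towards the centromere. On the long arm it was 0.052 over 222 genes, and on the other chromosomes -0.021 over 9236. Of 150 windows of 20 Mb with at least 20 genes, the 3 that make up the short arm had the 3 lowest medians of the genome (-0.37, -0.34 and -0.31), and the next lowest was -0.23. The shift was there without Torin too, at -0.32, and the median interaction on the arm was -0.038. In DKO Torin against TFE3 KO Torin the medians were -0.26 on the short arm and -0.27 on the long arm. DNA copy number was not measured, and its part in these values was not tested.

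Several genes given above lie on the short arm. Of these TFEB, ATF6B, ZBTB22, HSP90AB1, RPS18, RPS10, NEU1 and ELOVL5 were lower, and PSMB8, PSMB9 and HLA-B were higher. HLA-C and TAP1, which are interferon genes of the same arm, had 0.16 and -0.019 (adjusted p = 0.514 and 0.965). With all of chromosome 6 left out, 297 genes were called, and all of them were among the 318. Each gene has its own test, so this fit could hardly change the other calls and does not check them.

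**Figure D5:**
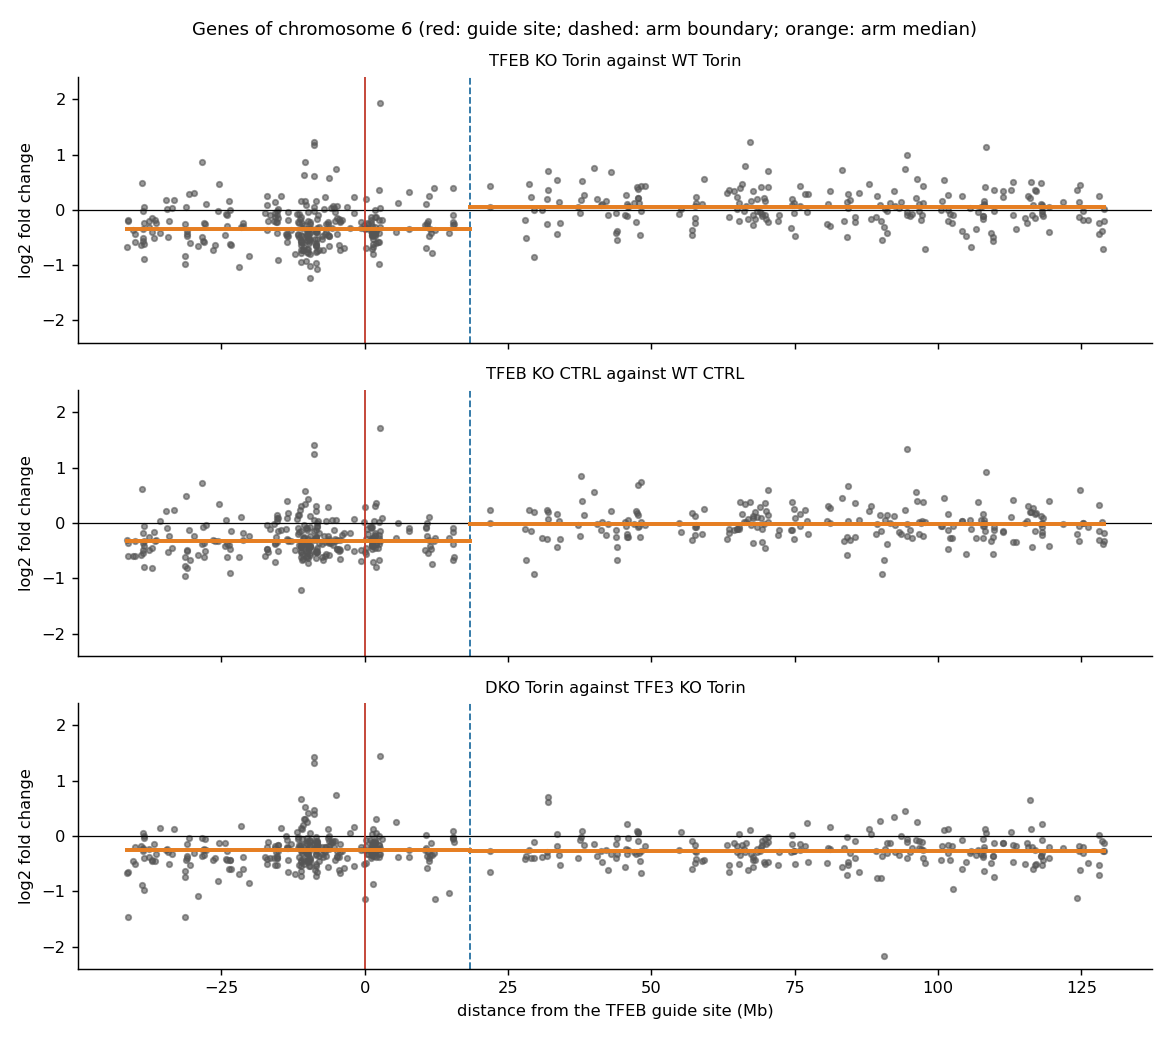
Log2 fold change of genes on chromosome 6 against their distance in Mb from the TFEB guide site (red line), in 3 comparisons, each point 1 gene, with the arm boundary dashed and the median of each arm in orange. In both TFEB KO panels the short arm median lies below 0 (-0.34 and -0.32) and the long arm near 0, and in the DKO panel both arms lie below 0 (-0.26 and -0.27).

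Promoters were searched because MiT/TFE proteins bind CACGTG. RefSeq promoters (GRCh38.p14, 250 bases before to 50 after each gene start) were matched for 10235 of the 13052 genes. CACGTG, which reads alike on both strands, was in 10.4% of all these promoters, in 17 of 193 of the called higher genes (8.81%) and in 3 of 38 of the called lower genes (7.89%). The longer TCACGTGA, which contains it, was in 1.99% of all, in 1 of the 193 and in 0 of the 38. TGAGTCA or its reverse complement, the AP-1 motif, was in 2.89% of all, in 12 of the 193 (6.22%) and in 1 of the 38 (2.63%). The matches in the called genes named above are printed to show where they lie, with the motif in capitals. IRS1 and ATF6B are of the lower genes, and DDR2 and IL11 of the higher.
IRS1, chr2:226799772-226799793, - strand: ggctccgtCACGTGtttttctc
ATF6B, chr6:32128335-32128356, - strand: tgttgattCACGTGctcagcac
DDR2, chr1:162630854-162630876, + strand: gtctggccTGAGTCAccctcagg
IL11, chr19:55370545-55370567, - strand: agggagggTGAGTCAggatgtgt
A match is a run of letters in this window and was not measured as a binding site.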

How the data were processed

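RNA of 501mel cultures was made into 3′ end libraries and sequenced by the authors, whose processing notes name FastQC 0.11.9, cutadapt 2.10, STAR 2.7.8a, edgeR and the hg38 genome. The deposited values are signal per gene: read counts that the authors scaled per library with edgeR, close to CPM, listed for 13523 genes. The counter, its strand setting, the kind of library size factor and the filter on genes are not given in the sources used here. In every library 100% of the values were whole multiples of 1 read within 0.01, so reads were recovered, 4147050 to 6526392 per library. Nothing in the labels says that replicates came from separate cultures, so p-values measure only the spread between these libraries.

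The main test was limma 3.58.1 (R 4.3.3; trend and robust) on log2(value + 1) over 25 libraries. The 2 columns with equal values were left out. The 13052 genes that reached a value of 1 in 3 or more libraries entered the test, with Benjamini-Hochberg adjustment over all of them. Fold changes are on the log2(value + 1) scale, which understates those of scarce genes. For called genes of the lists with at most 3 reads in each WT Torin library, the ratio of summed reads with an exact 95% counting interval was given. Alternatives included edgeR 4.0.16 and DESeq2 1.42.0 on recovered reads, another pseudocount, other filters and scaling, fewer libraries and the duplicated column. Removing the GC trend and leaving out chromosome 6 were chosen after seeing the data. The scripts were tested on simulated data.

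Named genes were TFEB, TFE3 and MITF, the 12 called genes with the highest and the 12 with the lowest log2 fold change (mean at least 5, no overlap of libraries), up to 4 called members of each list in each direction (or the 2 with the lowest adjusted p), and the 5 highest and 5 lowest called genes of the interaction (mean at least 5). Other list members that passed are also named, and some genes are not reported here. Members and the 24 lists were chosen with earlier results of these data known. Genes were placed by symbol with GENCODE and RefSeq annotation, and 306 of the 13523 were not placed.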

Additional observations from a re-analysis of the deposited data

Results flagged for a closer look

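The difference between the TFEB KO clone and WT under Torin was unlike that without drug in 27 genes (limma interaction, called as above). Clone and genotype cannot be told apart in this test. The 5 highest and 5 lowest with a mean value of at least 5 are given. TFEB KO was relatively higher under Torin in ATP1B1 (1.70 on the log2 scale), OVAAL (1.60), MTHFD2P1 (1.57), FAM133A (1.55) and ANKRD1 (1.49). It was relatively lower in OLFML2A (-1.57), NLGN2 (-1.52), PRICKLE1 (-1.40), SIDT2 (-1.16) and ATF6B (-1.16). With 1 of the 11 libraries left out in turn, ATP1B1 and MTHFD2P1 were called each time, and the call was lost at least 1 time in the other 8, 8 times in SIDT2, 7 in ATF6B and 6 in PRICKLE1. With the GC trend removed, 20 genes were called in the interaction in place of 27. The groups had 2 or 3 libraries each, too few to look for a single outlying library within a group.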

How the results depend on the processing

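Across the settings tried, the number of genes called under Torin stayed within 1.5 times of 318 except at a minimum value of 5, where it was 190, and the same filter gave 145 in place of 218 without drug. On recovered reads edgeR called 349 genes (279 of the 318) and DESeq2 288 (233), and 314 were called when the column with duplicated values joined WT Torin, of which 206 were among the 318. Leaving out each library in turn gave 298 to 335 genes under Torin, 232 to 270 without drug, 671 to 706 against TFE3 KO, 171 to 216 for DKO against TFE3 KO and 13 to 41 for the interaction. Without WT Torin replicate 2 or 3, 208 and 199 of the 318 were still called. The WT library that remains is then assumed to vary like the other groups. With the duplicated column the interaction called 1 gene.

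TFE3 ranged from -0.18 to 0.027 over left-out libraries, turning sign without WT Torin replicate 2. MITF ranged from -0.014 to 0.033, turning sign without TFEB KO Torin replicate 1 (-0.0095) or 3 (-0.014), and was -0.34 with the duplicated column and -0.071 with the GC trend removed. None of these passed. Among named genes 990 gene and setting pairs kept direction and call, 90 lost the call, 1 gained it and 5 turned. The cause was not tested.

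With the replicate block 318 genes were called (271 higher and 47 lower), 297 of them shared. Same-numbered libraries of TFEB KO Torin and WT Torin deviated from their group means with a correlation of -0.013 to -0.010. The WT Torin libraries deviate from their mean as mirror images, so these values cannot decide whether same-numbered libraries share more than a number. Over all 40 same-numbered pairs of the 6 groups the correlation ran from -0.219 to 0.298.

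Precision is limited by 2 WT Torin libraries, 1 clone of each genotype and the low counts of most called genes. No detection limit was computed.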
